A study of Mus musculus with 2 samples.

Results

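The mRNAs of 10 genes that write, remove or protect DNA methylation were compared between eggs of mice that had slimmed and eggs of control mice. The genes were chosen by their known role and matched by symbol to the Ensembl identifiers of the deposited table, which lists 36227 genes, 18017 of them with counts. All 10 were found with counts, and 7 of them reached 10 CPM (counts scaled to a common library total) in at least 1 library, as did 5714 genes in all. Both groups were female founder mice of the outbred ICR strain that grew up in ordinary cages and were obese at 12 weeks. The control group, labelled as fed a standard diet, stayed in the normal cage for 4 weeks, while the slimming group, labelled as enriched environment-induced maternal slimming, spent those 4 weeks in EE cages. At 16 weeks, naturally ovulated oocytes at the MII stage, the mature egg arrested in meiosis, were collected from 3 mice per group, with 3 oocytes from each mouse. The 9 oocytes of a group were lysed together and made 1 library, so animals are pooled and no difference below has a replicate check. Whether a difference is carried by some of the oocytes or by all of them cannot be told in such pools.

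DNA methylation in mammals sits mainly on cytosines of CG dinucleotides. Dnmt1, guided by Uhrf1 to newly replicated DNA, copies the pattern through cell division, whereas Dnmt3a and Dnmt3b place new marks, and in the growing oocyte Dnmt3a does so together with its catalytically inactive cofactor Dnmt3l. TET enzymes oxidise 5-methylcytosine, and after fertilisation Dppa3 shields the maternal genome from this, while the zinc finger protein Zfp57 and its partner Trim28 hold methylation at imprinted regions.

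Several of these genes have more than 1 annotated start, and the deposited counts are per gene, so they do not tell which start was used. Below, the 250 bases before 4 of the starts are shown, chosen with the counts known, because they belong to the members past the filter that lay farthest apart between the libraries (Uhrf1 and Dnmt3l) and to Dnmt1, whose oocyte form is known to begin at an upstream exon of its own. The sequences are from RefSeq on build GRCm38.p6, run 5′ to 3′ towards the start, and hold no annotated exon; capitals mark CG dinucleotides. They lie at chr9:20959889-20960138 (Dnmt1, first start, minus strand), chr9:20952980-20953229 (Dnmt1, second start, minus strand), chr10:78049592-78049841 (Dnmt3l, second of 3 starts, plus strand) and chr17:56304063-56304312 (Uhrf1, second of 2 starts, plus strand).
Dnmt1 first start: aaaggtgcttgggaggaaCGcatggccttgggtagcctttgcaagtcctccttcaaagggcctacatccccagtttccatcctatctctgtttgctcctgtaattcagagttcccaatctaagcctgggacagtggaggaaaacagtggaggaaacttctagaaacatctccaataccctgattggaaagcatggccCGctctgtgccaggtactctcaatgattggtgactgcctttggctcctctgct
Dnmt1 second start: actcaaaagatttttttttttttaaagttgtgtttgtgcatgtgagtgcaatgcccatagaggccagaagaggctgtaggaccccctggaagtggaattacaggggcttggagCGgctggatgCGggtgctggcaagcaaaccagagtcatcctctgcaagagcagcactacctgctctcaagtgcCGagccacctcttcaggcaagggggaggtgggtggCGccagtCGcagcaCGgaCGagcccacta
Dnmt3l second start: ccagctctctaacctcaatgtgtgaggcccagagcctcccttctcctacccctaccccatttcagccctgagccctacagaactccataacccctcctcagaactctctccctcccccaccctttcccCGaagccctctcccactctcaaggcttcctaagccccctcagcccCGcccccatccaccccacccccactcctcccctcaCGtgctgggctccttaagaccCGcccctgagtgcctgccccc
Uhrf1 second start: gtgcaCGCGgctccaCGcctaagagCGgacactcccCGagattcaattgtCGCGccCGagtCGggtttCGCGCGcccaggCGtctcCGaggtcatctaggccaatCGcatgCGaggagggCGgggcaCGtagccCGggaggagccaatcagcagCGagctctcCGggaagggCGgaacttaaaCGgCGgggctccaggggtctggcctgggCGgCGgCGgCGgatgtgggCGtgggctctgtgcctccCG

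The first Dnmt1 window, 6909 bases upstream of the second start, held 2 CG dinucleotides, and the second held 7. The Dnmt3l window held 4 and the Uhrf1 window 30, while the window before the first Uhrf1 start held 10. The median over 32851 windows of the same length was 6, and 94.8% of windows had as few CG dinucleotides as that of Uhrf1. Across the 18 windows of the 9 members matched in the table, the 3 starts of Dnmt3l had 3 to 5, the 3 starts of Zfp57 had 3 to 7, and those of Tet2 and Dnmt3b had 51 and 21. Annotated exons cover part of some windows, such as 166 of the 250 bases before the third Dnmt1 start, which held 26. A search on both strands found the letters CCAAT at 4 places in the first Dnmt1 window and at 2 places in the Uhrf1 window, where 33.8% of all windows hold them at least once. The first Dnmt1 window had 0 matches to CANNTG and to GGGCGG, which 66.2% and 32.7% of windows hold, and the Uhrf1 window had 1 and 3. These matches describe letters only.

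**Figure D1:**
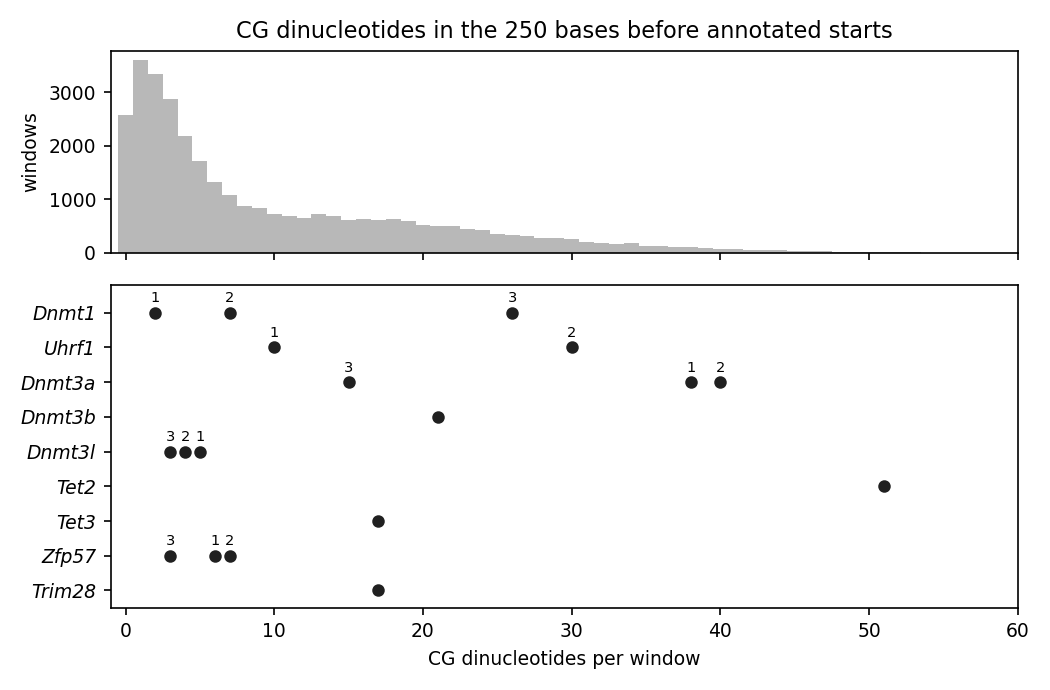
CG dinucleotides in the 250 bases before annotated starts, as a histogram over 32851 windows (top; bars, number of windows) and for each start of 9 members (bottom; points, numbered from the 5′ end where a gene has more than 1 start). The 3 starts of Dnmt3l sit at 3 to 5, and the 2 starts of Uhrf1 at 10 and 30.

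The libraries held 20947962 counts (slimming) and 20242289 counts (control). Of 10 oocyte markers fixed for this check, 10 were past 10 CPM, with sums of 103876 CPM in slimming eggs and 104310 CPM in control eggs, most of it Gdf9 and H1foo. The zona pellucida genes Zp3, Zp1 and Zp2 were 2.05, 1.92 and 1.75-fold higher in slimming eggs, the 3 of the 10 at least 1.5-fold higher, and 0 were as far lower. Of all genes past 10 CPM in at least 1 library, 10.3% were that far higher and 7.16% that far lower. Markers of cumulus and granulosa cells summed to 534 and 530 CPM, or 43.1 and 55.5 CPM without Serpine2, and 6 of the 15 (Amh, Foxl2, Fshr, Ptgs2, Ptx3 and Star) were left blank for both libraries. Immune markers summed to 27.6 and 45.4 CPM, with Cd74 left blank. In each of these lists, among the 7 genes holding 10 counts or more, 3 lay 2-fold or further below control and 0 as far above. Each of these lower genes had 0 counts in slimming eggs. In control eggs Inha, Cyp11a1 and Inhba had 63, 17 and 12 counts, and Fcer1g, Tyrobp and C1qa had 62, 57 and 11. Their mean levels lay between 0.2 and 2 CPM, where 28.1% of all genes were at least 2-fold lower. The 8 oviduct markers came to 5.97 and 12.1 CPM without Cdh1, with Foxj1 left blank. Most of that was Tppp3, at 4.44 and 10.4 CPM or 2.38-fold lower in slimming eggs, past 10 CPM only through the control library. Among the 4 oviduct markers holding 10 counts or more, 1 lay 2-fold or further below control and 0 as far above. Of genes with a mean of 2 to 10 CPM, the range of Tppp3, 9.06% were at least 2-fold lower. Genes of dividing cells, several of which the oocyte also expresses, summed to 1055 and 1101 CPM, with 8 of 8 detected and 0 at least 2-fold apart. Of these 8, 7 were past the filter, and 4.67% of all genes past it were at least 2-fold apart. The part of these other cells in the member values was not tested.

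The maintenance pair differed in opposite directions between the libraries. Dnmt1 (ENSMUSG00000004099, chromosome 9), the maintenance methyltransferase, had 25386 counts or 1212 CPM in slimming eggs and 21522 counts or 1063 CPM in control eggs. It was 1.12-fold higher in slimming eggs, a log2 ratio of 0.16 with a 95% counting interval of 0.13 to 0.18, and 56.8% of the 250 genes of like level lay as far from 0. Intervals given here are exact and cover counting error only, since copies made by PCR cannot be told from separate molecules. Uhrf1 (ENSMUSG00000001228, chromosome 17), which reads hemimethylated DNA and brings Dnmt1 to it, had 1390 counts or 66.4 CPM against 2385 counts or 118 CPM. It was 1.81-fold lower in slimming eggs (log2 ratio -0.86, interval -0.96 to -0.76). Among the 1603 genes past the filter within 2-fold of its mean level, the log2 ratio had an SD of 0.38, and 2.87% lay as far from 0 as Uhrf1. The slimming pool held 18.3 Dnmt1 counts per Uhrf1 count and the control pool 9.02. That ratio, which no scaling of the libraries touches, was 2.02-fold higher in slimming eggs (interval 1.89 to 2.17). The spread of such ratios over other pairs of genes was not computed, here or for the pairs below. A pseudogene that shares 1590 bases with Uhrf1 at 98.3% identity, Gm5648, had only 20 and 5 counts, and with them added to Uhrf1 the ratio of ratios was 2.00.

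The de novo enzymes were lower and their cofactor higher in slimming eggs. Dnmt3a (ENSMUSG00000020661, chromosome 12) had 1089 counts or 52.0 CPM in slimming eggs and 1330 counts or 65.7 CPM in control eggs (log2 ratio -0.37, interval -0.49 to -0.25). Dnmt3b (ENSMUSG00000027478, chromosome 2), its paralogue, had 315 counts or 15.04 CPM against 381 counts or 18.8 CPM (log2 ratio -0.35, interval -0.58 to -0.14). These differences are of a common size, since 31.4% of genes of like level lay as far from 0 as Dnmt3a and 45.5% as far as Dnmt3b. Dnmt3l (ENSMUSG00000000730, chromosome 10) had 2760 counts or 132 CPM in slimming eggs and 1691 counts or 83.5 CPM in control eggs. It was 1.54-fold higher in slimming eggs (log2 ratio 0.63, interval 0.54 to 0.71), and 9.39% of the 1513 genes of like level, whose log2 ratios had an SD of 0.37, lay as far from 0.

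Set against each other within a library, the enzymes had the same ratio to each other in both pools, within counting error, but not to Dnmt3l. Dnmt3a had 3.46 counts per count of Dnmt3b in slimming eggs and 3.49 in control eggs, a ratio of ratios of 0.99 (interval 0.83 to 1.18). There were 2.53 counts of Dnmt3l per count of Dnmt3a in slimming eggs and 1.27 in control eggs, 1.99-fold more (interval 1.80 to 2.21). Dnmt3l has a short transcript of 1822 nucleotides, and genes in the shortest of 5 equal length groups, which it falls in, had a median log2 ratio of 0.17 against -0.09 in the longest. Dnmt3a, at 9685 nucleotides for its longest annotated transcript, falls in the longest group. With that trend removed, the log2 ratios were 0.54 for Dnmt3l and -0.25 for Dnmt3a, closer together than before. The 1.99-fold value does not include this correction. Dnmt3l shares 67 of its 2988 annotated exon bases with Aire on the opposite strand, and Dnmt3a shares 133 of 16642 with the antisense gene Dnmt3aos. Aire had 422 and 385 counts (log2 ratio 0.05) and Dnmt3aos 0 and 2 counts, and without stated use of strand reads in the shared bases cannot be assigned. Dnmt3c, a rodent copy of Dnmt3b with 93.9% identity over 1434 bases, had 6 and 3 counts.

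**Figure D2:**
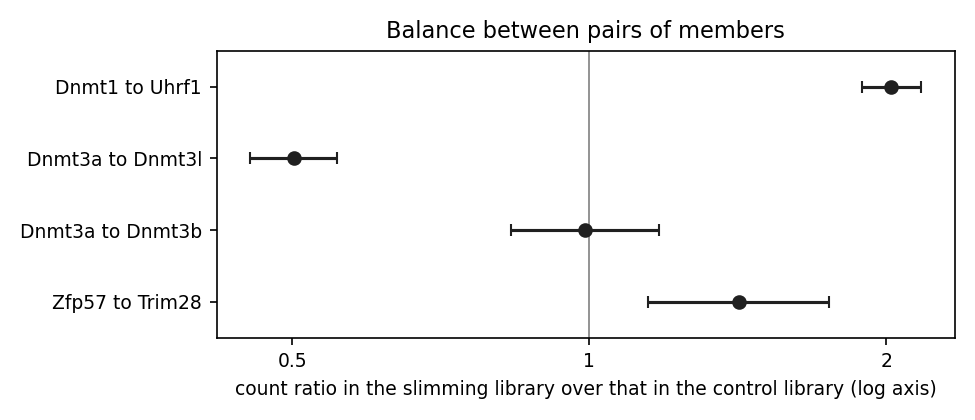
Ratio of counts between 2 members in the slimming library divided by the same ratio in control eggs, on a log axis; points are the values and bars the exact 95% counting intervals. Dnmt1 to Uhrf1 lies at 2.02 and Dnmt3a to Dnmt3l at 0.50, while Dnmt3a to Dnmt3b lies at 0.99.

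The erasers were close to the limit of detection in both libraries. Tet2 (ENSMUSG00000040943, chromosome 3) had 17 counts in slimming eggs and 28 in control eggs, or 0.812 and 1.38 CPM, and its interval of -1.76 to 0.12 on the log2 scale included 0. It shares 43 of 16870 exon bases with Gm42567, not analysed here. Tet3 (ENSMUSG00000034832, chromosome 6), known as the maternal enzyme that oxidises methylated DNA in the zygote, had 0 counts in slimming eggs and 11 counts or 0.543 CPM in control eggs. The upper limit that 0 counts leave, 3 counts or 0.143 CPM, was taken as a floor, against which Tet3 was at least 3.88-fold lower in slimming eggs if the 11 control counts are taken as exact. With counting error in both libraries the interval ended at a log2 ratio of -1.41, or 2.65-fold lower. Of 4627 genes with a mean of 0.2 to 2 CPM, 28.1% were at least 2-fold lower in slimming eggs. The gene model behind the Tet3 count is unstated in the sources used here, and its part in the low counts was not tested. Tet1, no member and named after its value was seen, had 102 counts or 4.87 CPM in slimming eggs and 18 counts or 0.889 CPM in control eggs (log2 ratio 2.39, interval 1.69 to 3.23), in a range of 2 to 10 CPM where 10.8% of genes were at least 2-fold higher. Summed, the 3 TET genes gave 119 and 57 counts.

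Of the protectors, Dppa3 was near equal and Trim28 a little lower in slimming eggs. Dppa3 (ENSMUSG00000046323, chromosome 6), also called Stella, had 24811 counts or 1184 CPM in slimming eggs and 22736 counts or 1123 CPM in control eggs (log2 ratio 0.05, interval 0.02 to 0.07). That sign is not stable, with -0.21 after removal of the length trend and -0.00032 under upper-quartile scaling. The retrocopy Dppa3-ps, 98.2% identical over 451 bases, had 3679 and 2666 counts (log2 ratio 0.38, interval 0.31 to 0.46), and how reads were divided between the copies is not given in the sources used here. Trim28 (ENSMUSG00000005566, chromosome 7), the corepressor that Zfp57 recruits, was the most abundant member by counts, with 40586 counts or 1937 CPM against 46725 counts or 2308 CPM (log2 ratio -0.28, interval -0.30 to -0.26). Among the 103 genes of like level, 35.0% lay as far from 0. Zfp57 (ENSMUSG00000036036, chromosome 17), which binds the methylated allele of imprinted regions, had 203 counts or 9.69 CPM and 165 counts or 8.15 CPM, just under the 10 CPM limit that Dnmt3b passed at 15.04 and 18.8 CPM. Its log2 ratio of 0.22 had an interval, -0.09 to 0.52, that included 0. Among the 1475 genes of like level, whose log2 ratios had an SD of 0.68, 70.6% lay as far from 0. In the slimming library there were 200 counts of Trim28 per count of Zfp57, and in control eggs 283, so the Zfp57 to Trim28 ratio was 1.42-fold higher in slimming eggs (interval 1.15 to 1.75). That interval covers counting error only. Besides the SD of 0.68 for genes of like level to Zfp57, those of like level to Trim28 had an SD of 0.31.

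**Figure D3:**
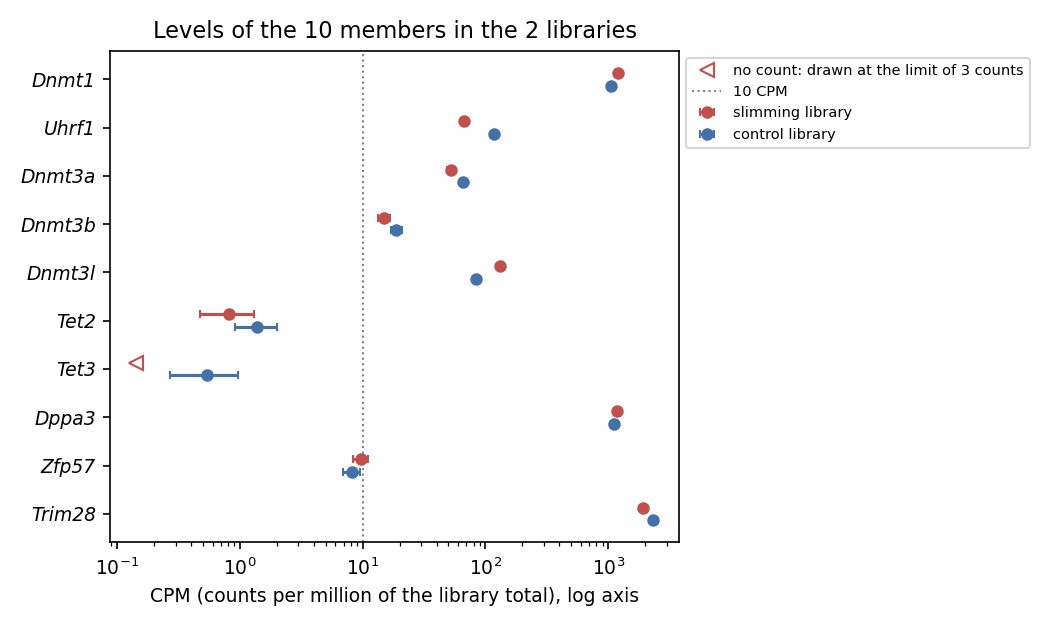
Levels of the 10 members in CPM on a log axis; filled points are the 2 libraries, bars exact 95% Poisson intervals, the open triangle the limit of 3 counts for Tet3 in the slimming library, and the dotted line 10 CPM. Trim28, Dnmt1 and Dppa3 lie above 1000 CPM in both libraries and Tet2 and Tet3 below 2 CPM.

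Levels differed widely across the members. Trim28, Dnmt1 and Dppa3 together held 94.0% of the member counts in slimming eggs and 93.8% in control eggs. Per kilobase of the longest annotated transcript, Dppa3 ranked first at 1422 and 1348 CPM per kilobase in slimming and control eggs, above 99.7% of the genes with counts in each. Trim28 followed at 597 and 711 and Dnmt1 at 206 and 181 CPM per kilobase. Next came Dnmt3l at 72.3 and 45.8, Uhrf1 at 18.5 and 32.9, and Dnmt3a at 5.37 and 6.78 CPM per kilobase. Dnmt3b and Zfp57 stood in opposite order in the libraries, with 3.48 and 3.73 CPM per kilobase in the slimming library, where their counting intervals (3.11 to 3.89 and 3.24 to 4.28) overlapped, and 4.36 and 3.14 in control eggs, where they did not. Tet2 and Tet3 were last in both. Reads primed at the poly(A) tail need not scale with transcript length, and by CPM alone 5 (slimming) and 6 (control) of the 10 members held the same rank.

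The members were then read against all genes past the filter. Of the 7 members past the filter, Dnmt3l was at least 1.5-fold higher and Uhrf1 at least 1.5-fold lower in slimming eggs, where 17.5% of all genes past the filter were that far apart (10.3% higher and 7.16% lower), a share that comes to about 1 of 7 genes. Under upper-quartile scaling Dnmt3l had a log2 ratio of 0.58, just short of 1.5-fold. Of the 7, 0 were at least 2-fold apart, against 4.67% of all genes past the filter (2.73% higher and 1.94% lower). Their median log2 ratio was -0.28, with 3 above and 4 below the median of all such genes, 0.02. With the 3 members under the filter included the median was -0.32. Summed over the 10 members, 49.9% of the counts came from the slimming library (exact 95% interval 49.7 to 50.1), which held 50.9% of all counts. The authors' deposited table had 7 of the 10 members marked at a p-value of 0.001, a comparison of the reads of 2 libraries that marked 35.9% of the 15263 genes it was given for. Such a mark depends on the number of reads as well as on the ratio. Many of those genes lie below the 10 CPM filter, and the share among genes of like level was not computed.

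**Figure D4:**
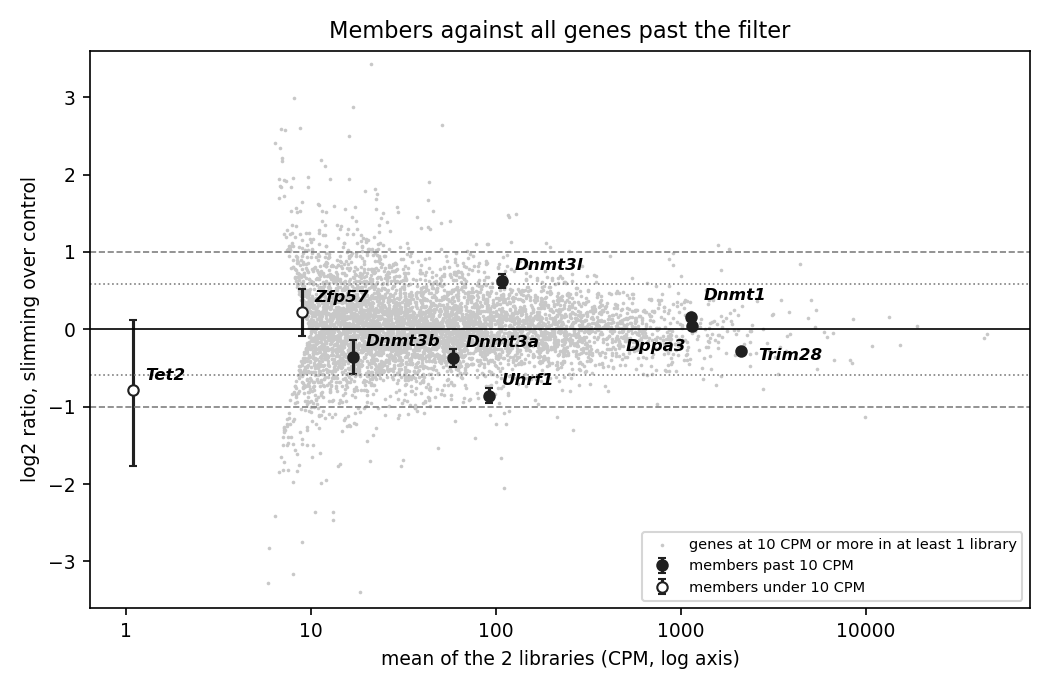
Log2 ratio of slimming over control against the mean of the 2 libraries in CPM (log axis) for 5714 genes past the filter (grey), members past it (filled) and under it (open), with exact 95% counting intervals; dotted lines mark 1.5-fold and dashed lines 2-fold. Uhrf1 at -0.86 and Dnmt3l at 0.63 lie beyond the dotted lines, and Tet3, with 0 counts in the slimming library, is not drawn.

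The wider pathway was described with 6 lists of genes, members included. Among methyltransferases and their cofactors, 9 of 12 genes were past the filter, 4 above and 5 below the median of all genes past it, with a list median of -0.10. Besides Uhrf1, Trdmt1, which methylates transfer RNA, was at least 1.5-fold lower in slimming eggs (7.97 against 12.99 CPM, log2 ratio -0.73, interval -1.02 to -0.45). Trdmt1 was past the filter only through the control library, so the filter itself favoured a lower ratio for it. Of all genes past the filter, 7.16% were at least 1.5-fold lower. Cxxc1, a reader of unmethylated CG sites, was the most abundant of the list outside the members, with 186 and 163 CPM and a log2 ratio of 0.16.

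In the list of TET enzymes and demethylation, 10 of 24 genes were past the filter, 2 above and 8 below the median of all such genes, with a list median of -0.22. Ung, a glycosylase that removes uracil from DNA, was 2.47-fold lower in slimming eggs at 154 against 371 CPM (log2 ratio -1.30, interval -1.36 to -1.24). It was the 1 gene of these 10 that was at least 1.5-fold apart, against 17.5% of all genes past the filter. Ogt, the glucosamine transferase that partners TET proteins, had a log2 ratio of -0.58, and Ddb1, part of a ubiquitin ligase that acts in the oocyte, had 2124 and 2582 CPM at -0.31. Genes left blank for both libraries included Gadd45g, Idh2 and Tdg, the glycosylase that excises oxidised methylcytosine.

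Methyl-CpG readers were close to equal, with 4 of 9 past the filter and a list median of 0.06. Mbd3, the most abundant, had a log2 ratio of 0.12, Mbd5 had 0.15 and Mbd2 -0.33, and 0 of the 4 were 1.5-fold apart. Of all genes past the filter, 17.5% were that far apart. Among imprint protectors and their partners, 12 of 22 genes were past the filter, 4 above and 8 below the median of all such genes, with a list median of -0.15. Cbx1, which binds heterochromatin, was 1.65-fold lower in slimming eggs at 72.0 against 116 CPM (log2 ratio -0.72, interval -0.82 to -0.63), and Ctcf, the insulator protein that binds unmethylated imprinting control regions, had a log2 ratio of -0.52. Rbbp7, a histone-binding subunit of corepressor complexes and the most abundant partner, had 637 and 634 CPM and a log2 ratio of -0.02.

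Enzymes of the histone marks that guide methylation went both ways. Of 11 genes 10 were past the filter, 5 above and 5 below the median of all such genes, with a list median of -0.05. The methyltransferase Kmt2d and the demethylase Kdm1a were higher in slimming eggs, at log2 ratios of 1.09 (13.2 against 6.03 CPM) and 0.92 (16.3 against 8.45 CPM). Both were past the filter only through the slimming library, so the filter itself favoured a higher ratio for them. Kmt2b, the most abundant and known to act in the oocyte, had 639 and 554 CPM (log2 ratio 0.18), and Glyr1, named because it was the 1 gene at least 1.5-fold lower, had -0.73. In methyl donor supply, 10 of 16 genes were past the filter, 4 above and 6 below, with a list median of -0.09. Mat1a, which makes S-adenosylmethionine, was 1.71-fold lower in slimming eggs (32.5 against 54.4 CPM), and Mat2b, the regulatory subunit of the related Mat2a enzyme, had 836 and 800 CPM at 0.03.

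**Figure D5:**
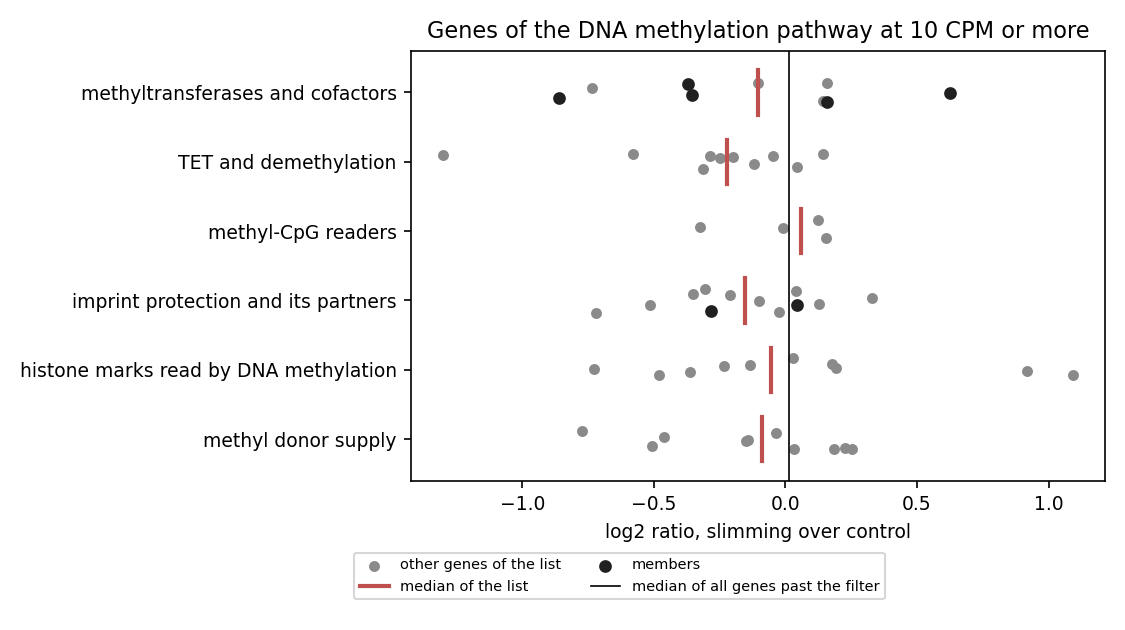
Log2 ratio of slimming over control for pathway genes past 10 CPM in at least 1 library, by list; black points are members, grey points other genes, red bars list medians, and the black line the median of all genes past the filter (0.02). The medians run from -0.22 (TET and demethylation) to 0.06 (methyl-CpG readers), and vertical scatter within a list only separates points.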

How the data were processed

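Messenger RNA of 9 pooled oocytes per group was primed with oligo(dT), amplified by PCR (18 and then 14 cycles) and sequenced on a SOLiD 4 instrument, per the labels' protocols. The genome build was mm9, per the submitters' processing notes. How reads were aligned, counted, assigned to strands and matched to gene models was not given in the sources used here. Raw counts per Ensembl gene were deposited by the authors, slimming first per the file headers, with 18210 genes blank in both libraries, read here as no count. The authors also deposited a log2 ratio, a z-score (the score of the table) and a p-value with q-values that compare the reads of the 2 libraries.

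Symbols came from a gene name table by Ensembl identifier, which matched 16913 of the genes with counts; transcript lengths and exon overlaps came from GENCODE vM21 (GRCm38). Near copies were sought with blastn 2.17.0 at 90% identity over 200 bases. Totals were multiplied by TMM factors, 1.01 for slimming and 0.989 for control, computed with edgeR 4.0.16, and log2 ratios were taken after adding 0.5. Intervals are exact Clopper-Pearson intervals of the slimming counts among both counts, conditional intervals for ratios of ratios, or Poisson intervals for levels, each at 95%. Genes of like level are those past the 10 CPM filter within a log2 distance of 1 of the mean level. The groups were not tested, as each is 1 library. The script was tested on simulated data. The members, lists and naming rule (all members; from each list the most abundant other gene and the 2 with the largest absolute log2 ratio past the filter; genes overlapping a member) were chosen with earlier results of these data known; 1 gene the rule names is not reported here. Other scalings, added constants, filters and a length correction were tried.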

Additional observations from a re-analysis of the deposited data

How the results depend on the processing

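No paired analysis was possible because each group is 1 library. There were 8 alternatives per member (scaling, added constant, length trend, and near copies added, chosen after seeing the data). In all 8, 9 of the 10 members kept the sign of their log2 ratio. Dppa3 turned to -0.00032 under upper-quartile scaling and -0.21 with the length trend removed. A change of scaling moves all members by the same amount, so it can turn only a ratio near 0. The signs of Tet2 and Zfp57 lie within counting error. Uhrf1 stayed between -0.91 and -0.83, and Dnmt3l between 0.54 and 0.66, past 1.5-fold in 6 of 8. The median log2 ratio of members, -0.28, was -0.25 by total count, -0.33 by upper quartile, -0.32 with no filter, -0.12 at 30 CPM, -0.15 as a mean and -0.25 with the length trend removed. The 2 of 7 members at least 1.5-fold apart became 1 of 7 by upper quartile, where 17.6% of all genes were that far apart. The count was 3 of 9 at 1 CPM (35.0% of all genes), 2 of 6 at 30 CPM (12.3%) and 4 of 10 with no filter (52.7%). Without members that overlap another gene it was 1 of 5, against 17.5% of all genes. The 0 of 7 at least 2-fold apart became 1 of 10 with no filter (Tet3). Of genes with a mean of 0.2 to 2 CPM, the range of Tet3, 52.6% were at least 2-fold apart. The slimming share of member counts was 52.7% without Trim28 and 50.2% with near copies added. Of 10 level ranks, 6 (slimming) and 3 (control) held with median transcript lengths, and 5 and 6 by CPM alone. The cause of these shifts was not tested. Depth limits Tet2 and Tet3, whose levels of under 2 CPM rest on at most 28 counts.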
